A study of Mus musculus with 10 samples.

Results

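Collagen genes code for the triple-helical chains from which the extracellular matrix is built, and fibroblasts are among the main cells that secrete them. The genes described here are 42 listed autosomal collagen genes of the mouse, and all 42 were found among the 20021 autosomal protein-coding genes with a curated RefSeq transcript on GRCm38. The data are a list of 15119 DamID-seq peaks of ZFP266, a zinc finger protein, in mouse embryonic fibroblasts (MEFs) of strain 129. A peak was counted at a gene when it overlapped the gene or lay within 10 kb of it, and 48 of the 15119 peaks met this rule for a collagen gene. No peak was counted at more than 1 collagen gene.

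DamID-seq uses a fusion of the studied protein with Dam, a bacterial adenine methyltransferase, which marks GATC sites near the places where the fusion sits, and the marked fragments are cut out, amplified and sequenced. MEFs were nucleofected with the plasmid PGK-mO-Dam (Dam only, 5 samples) or PGK-mO-Dam-Zfp266 (Dam-Zfp266, 5 samples), both with mOrange as the first reading frame under the PGK promoter, and marker-positive cells were sorted after 48 h. The fusion was therefore made from a plasmid in addition to the cells' own ZFP266. One list was made from the 10 samples together. No value below therefore has a replicate error, no value of a single sample is given and the list does not give the read depth. The list holds positions and no expression value, so neither the fibroblast identity of the cells nor the activity of the collagen genes in them could be checked. The label Dam-Zfp266 could be checked in the gene itself. The 5 peaks of Zfp266 had the 5 highest signal values of the list, from 5.24 to 8.66, where the plasmid carries the same coding sequence.

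Collagens are grouped by the structures they form. Fibrillar collagens assemble into the banded fibrils of skin, bone, tendon and cartilage, network-forming collagens make the sheets of basement membranes, and type VI collagen makes beaded filaments around cells. Fibril-associated collagens (FACITs) sit on fibrils, multiplexins join basement membranes to the tissue beneath, and transmembrane collagens stay anchored in the cell surface.

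ZFP266 peaks were found at 21 of the 42 collagen genes (Wilson 95% interval of the share 35.5 to 64.5%, which covers counting error only), compared with 27.9% of all autosomal protein-coding genes. Collagen genes are long, with a median of 110.4 kb against 16.9 kb for all genes, and long genes meet more peaks. When each collagen gene was given the share of its own length group (10 groups of equal size), 19.6 genes with a peak were expected, and the ratio of observed to expected was 1.07. With the 200 genes nearest in length to each collagen gene, 18.9 were expected and the ratio was 1.11. The share of collagen genes with a peak was therefore close to that of other genes as long as they are. The 48 peaks were also close in number to the 50.3 expected from length.

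The count within the gene body was 20 of 42, with 16.7 expected from length and 17.5% of all genes. At least 3 peaks were found at 7 collagen genes, with 6.55 expected and 5.47% of all genes. These 7 genes, Col4a2, Col5a3, Col18a1, Col8a1, Col5a2, Col19a1 and Col26a1, held 30 of the 48 peaks (62.5%). A further 4 genes had 2 peaks and 10 had 1 peak. The order of the counts was not that of the lengths, since Col25a1, the longest member at 419.0 kb, had no peak, while Col5a3 with 45.0 kb had 6.

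**Figure D1:**
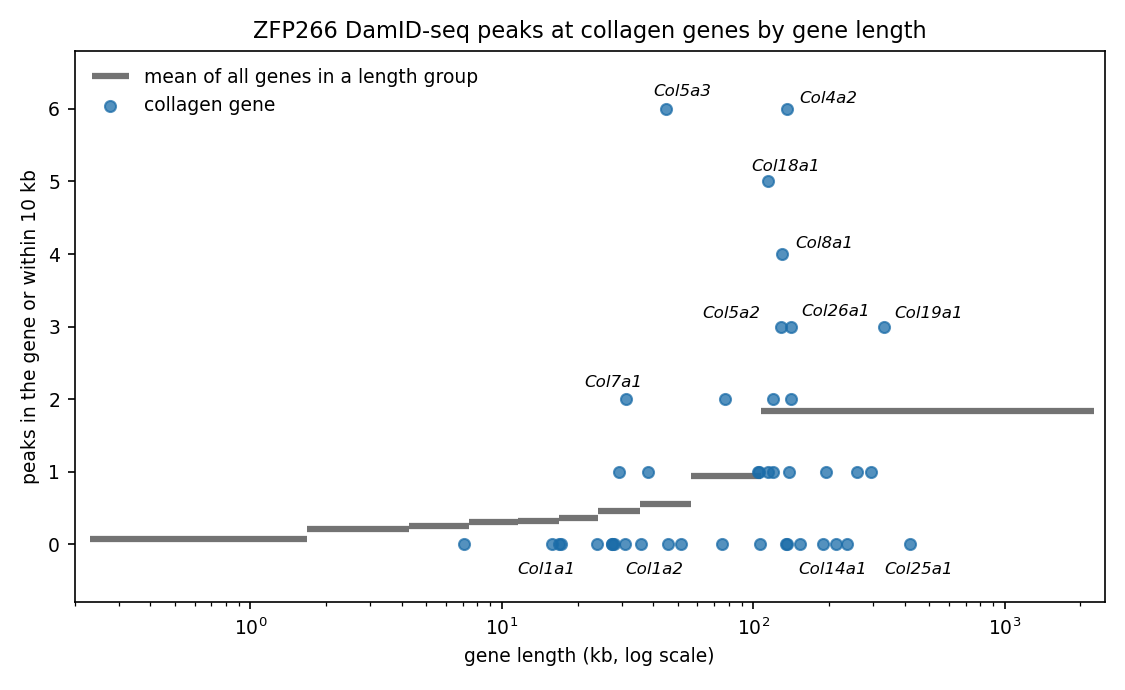
Number of ZFP266 peaks in or within 10 kb of each of the 42 collagen genes (blue points, vertical axis) against gene length in kb (horizontal axis, log scale). Grey bars give the mean number of peaks over all autosomal protein-coding genes in each of 10 length groups, which rises to 1.83 in the longest group, and Col4a2 and Col5a3 stand highest with 6 peaks each.

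The longest group, genes of 107.8 kb or more, held 21 of the collagen genes, and 14 of these had a peak (12.8 expected, 61.0% of all genes in the group). The other 21 collagen genes included 7 with a peak (6.81 expected). The median length was 119.7 kb for the 21 genes with a peak and 45.7 kb for the 21 without. Just inside the limit of 10 kb lay a peak 9.93 kb from Col5a3, which had other peaks nearer by. Just outside it were Col1a2, 14.3 kb from its nearest peak, and Col6a4, 15.4 kb from its nearest.

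Sequences of the peaks are shown here for the features that recur at ZFP266 peaks of this list as a whole, the B1 SINE and the AP-1 core motif. B1 SINEs are short repeats of the mouse genome that were copied from RNA made by RNA polymerase III, and the B box is part of their internal promoter. AP-1 is a family of dimers of JUN and FOS proteins, which bind TGACTCA or, read on the other strand, TGAGTCA. A consensus was made from GRCm38 around 113752 matches to the B box GTTCGANNC on either strand, and it is printed with the 9 bases of the box in capitals.
B1 consensus of the reference genome: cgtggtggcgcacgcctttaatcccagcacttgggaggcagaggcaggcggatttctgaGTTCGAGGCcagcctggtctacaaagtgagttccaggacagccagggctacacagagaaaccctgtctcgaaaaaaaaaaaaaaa

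Of the 15 B1 copies that met a collagen peak, 5 are printed below. They are the 4 that keep the box unchanged and the copy in the collagen peak with the highest −log10 q. They are given 5′ to 3′ on the strand of the copy, in GRCm38, with the bases at the place of the B box in capitals, and none overlaps an exon.
Col7a1, chr9:108950714-108950855, minus strand: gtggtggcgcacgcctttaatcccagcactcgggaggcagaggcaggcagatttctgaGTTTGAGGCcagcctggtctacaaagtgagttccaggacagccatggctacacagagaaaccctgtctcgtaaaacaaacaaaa
Col6a3, chr1:90833737-90833879, plus strand: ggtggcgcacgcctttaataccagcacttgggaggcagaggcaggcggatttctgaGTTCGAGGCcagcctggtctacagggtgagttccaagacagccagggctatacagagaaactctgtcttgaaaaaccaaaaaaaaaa
Col18a1, chr10:77147870-77148012, plus strand: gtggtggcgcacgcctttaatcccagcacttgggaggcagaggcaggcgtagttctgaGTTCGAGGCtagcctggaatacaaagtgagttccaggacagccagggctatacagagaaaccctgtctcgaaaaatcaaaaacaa
Col8a1, chr16:57759353-57759498, minus strand: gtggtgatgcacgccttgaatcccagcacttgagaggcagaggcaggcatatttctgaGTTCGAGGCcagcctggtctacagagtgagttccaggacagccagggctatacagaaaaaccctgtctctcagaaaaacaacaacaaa
Col26a1, chr5:136870871-136871011, plus strand: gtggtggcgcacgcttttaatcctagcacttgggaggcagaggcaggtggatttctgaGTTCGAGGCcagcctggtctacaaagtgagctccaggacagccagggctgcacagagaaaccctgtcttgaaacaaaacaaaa

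The Col7a1 copy was the nearest to the consensus of all 15 (95.1% identity), with 1 changed base in the box. The copies at Col6a3 (93.7%), Col18a1 (93.7%), Col8a1 (89.7%) and Col26a1 (94.3%) had an unchanged box. Among all 15 copies the identity ran from 76.5 to 95.1% with a median of 87.9%, and 4 of the 13 copies with a wholly aligned box kept every base of it. The orientation was mixed, with 7 copies on the strand of the gene and 8 on the opposite strand.

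AP-1 cores are shown for the fibrillar gene with the strongest such peak and for peaks that also held a B1 copy. Each run is 47 bases of the plus strand of GRCm38 centred on the core, which is in capitals. The 2 runs of Col5a2 overlap, because its cores stand side by side near the middle of the peak.
Col5a2, chr1:45495196-45495242, plus strand: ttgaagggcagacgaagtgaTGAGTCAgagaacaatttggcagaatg
Col5a2, chr1:45495221-45495267, plus strand: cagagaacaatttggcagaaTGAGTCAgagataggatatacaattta
Col18a1, chr10:77147363-77147409, plus strand: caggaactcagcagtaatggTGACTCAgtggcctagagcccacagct
Col6a3, chr1:90833263-90833309, plus strand: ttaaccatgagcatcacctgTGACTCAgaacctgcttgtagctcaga
Col8a1, chr16:57760031-57760077, plus strand: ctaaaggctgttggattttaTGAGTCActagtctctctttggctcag

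Among the 48 collagen peaks, 23 held an AP-1 core (47.9%, against 44.2% of all peaks and 45.2% of peaks of the same length group), and the 32 cores lay at 13 genes. A B1 copy met 14 of the peaks (29.2%, against 32.9 and 33.3%), at 9 genes. For copies of 85% identity or more the share was 16.7%, against 24.2% of all peaks. Both features were present in 9 peaks of 7 genes (18.8%, against 14.5% of all peaks), where the nearest copy and core were 98 to 2250 bp apart with a median of 481 bp. Neither was present in 20 peaks (41.7%, against 37.4%). A match to these letters is a description of the sequence and not a site where a protein was seen to bind.

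A KLF core, one of CCACACCC, CCCCACCC, CCACGCCC and CCCCGCCC on either strand, was found in 25 collagen peaks (52.1%, against 41.9% of all peaks and 43.1% of those of the same length group). The collagen peaks were also richer in G and C, with a median GC content of 47.6% against 43.5% for all peaks. The same held for the genes around them, whose median GC content was 48.0% against 43.6% in genes of the same length groups. Whether GC content has a part in the KLF share was not tested. The B box itself, which can also lie outside the copies found, was in 9 peaks (18.8%, against 15.1%).

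Collagen genes were poor in B1 copies. Their median was 0.783 copies per 10 kb of gene and flanks, compared with 1.34 in genes of the same length groups and 1.60 in all genes, and 30 of the 42 were below the median of their group. The density was 0.797 in collagen genes with a peak and 0.769 in those without, whereas over all genes the medians were 2.05 with and 1.43 without a peak. With overlapping windows of neighbouring collagen genes joined, 39 windows of 5570 kb in all held 480 copies. Of these, 15 (3.1%) met a peak with at least 1 base and 12 lay wholly inside one. Peaks covered 1.73% of the bases of these windows. The share of copies counts a touch of 1 base, so the 2 shares are not the same measure, and their difference was not tested.

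Peaks at collagen genes lay mainly in introns. By its midpoint, 41 of the 48 were intronic (85.4%, against 60.2% over all genes and 81.4% in the same length groups). First introns held 9 (18.8%, against 36.2% in the same length groups) and other introns 32 (66.7%, against 45.1%). Collagen genes are cut into many short exons, with a median of 48 exons against 7 in all genes and 16 in the longest group. There were 4 upstream and 2 downstream peaks and 1 with its midpoint in an exon, and 10 of the 48 touched with at least 1 base an exon of the 1 transcript taken to stand for each collagen gene, exons of other transcripts and genes not counted. No peak overlapped the promoter of a collagen gene, here from 1000 bp before to 100 bp after a start, where 1.82 genes were expected from length and 3.65% of all genes had such a peak.

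**Figure D2:**
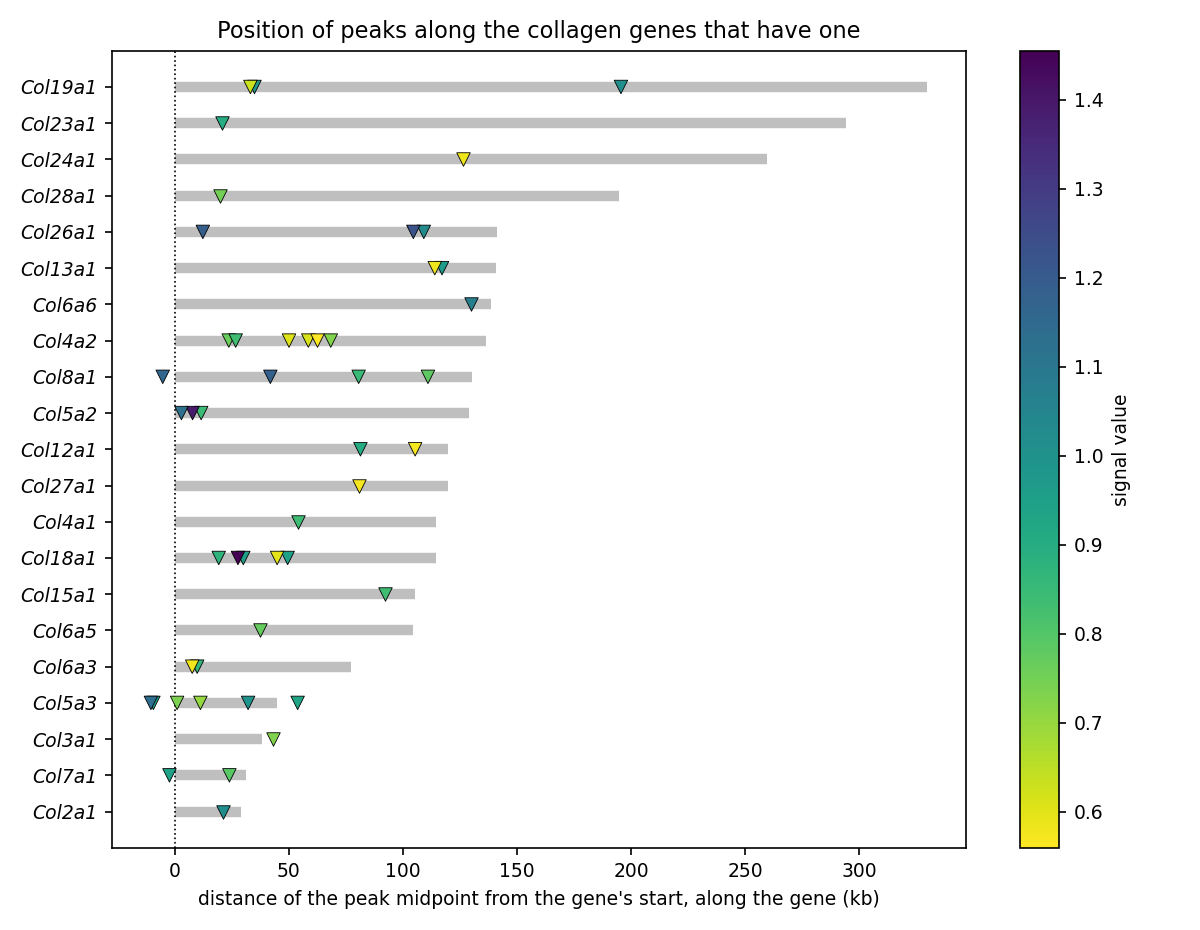
Peaks (triangles, coloured by signal value) along the 21 collagen genes that have one, drawn to scale from the start of each gene (0, dotted line) in kb, with the gene as a grey bar and negative distances upstream. The 3 peaks of Col5a2 stand within the first 12 kb, those of Col4a2 and Col18a1 form rows inside the gene, and 4 peaks lie upstream of a start.

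The signal value of a peak compares Dam-Zfp266 with Dam only, and the q-value is the caller's adjusted p. Collagen peaks had a median signal value of 0.859 (0.559 to 1.46), compared with 0.898 (0.227 to 8.66) for all peaks. Their median −log10 q was 1.38, against 1.33, and their median length was 1802 bp, against 1777 bp. The list reaches up to q = 0.09996, and 26 of the collagen peaks had q below 0.05 (54.2%, against 52.5% of all peaks). The methods give an FDR below 0.05 and a log2 fold change above 1 as an example of limits on peaks. The scale of the signal value is not stated, so a signal value above 1 may not be that second limit, and it is used here only as a stricter choice within the list. With q below 0.05 and a signal value above 1 (both limits below), 9 collagen peaks were left (18.8%, against 26.4%). They lay at 6 genes, Col18a1, Col5a2, Col26a1, Col8a1, Col5a3 and Col6a6, where 8.25 were expected from length and 10.2% of all genes had one. With these limits the ratio was 0.727, below 1, while it was 1.07 for the whole list.

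**Figure D3:**
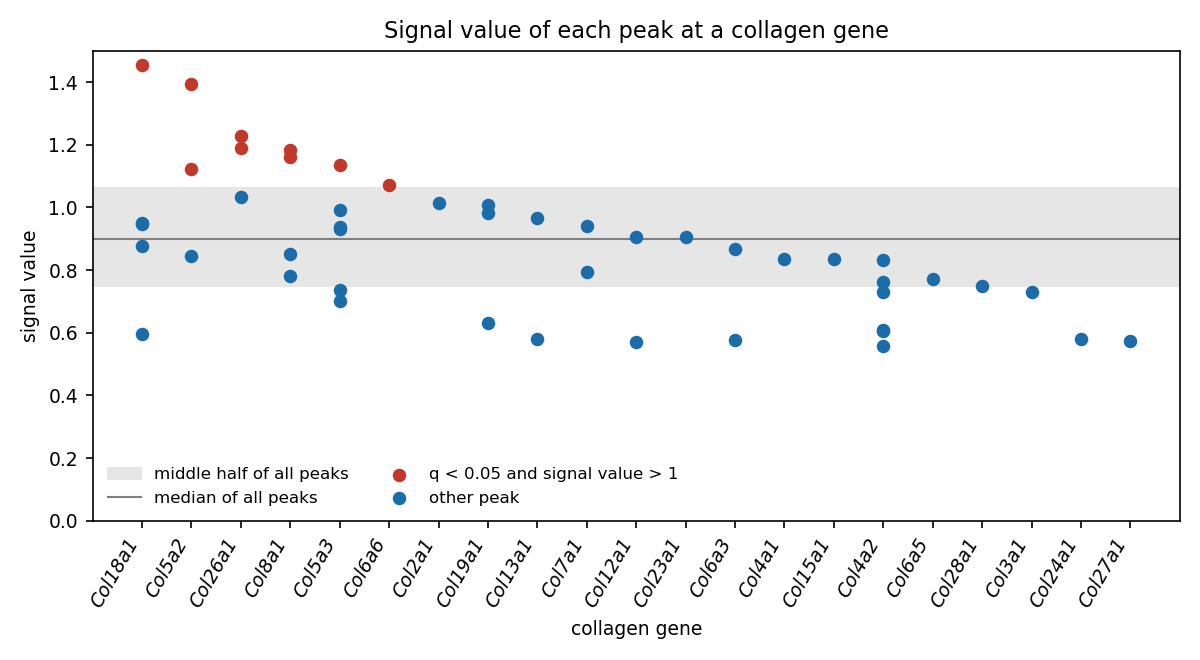
Signal value (vertical axis, the caller's comparison of Dam-Zfp266 with Dam only) of each of the 48 collagen peaks, by gene in the order of the highest value. Red points mark the 9 peaks with q below 0.05 and a signal value above 1, the grey line is the median of all peaks (0.898) and the band runs from their lower to their upper quartile (0.749 to 1.06).

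Fibrillar collagen genes had a peak in 6 of 11 cases (4.83 expected from length), with 13 peaks in all. Of these, 9 stood at the type V chains Col5a2 and Col5a3. Col5a2 (chr1:45374331-45503282), a chain of the type V collagen that starts and limits the growth of type I fibrils, had 3 peaks, all in its first intron and within 12.2 kb. The peak nearest to the start, 3.02 kb into the gene, had a signal value of 1.12 and a −log10 q of 2.27. The next, 7.90 kb into the gene, had a signal value of 1.39, higher than 95.2% of all peaks, with the AP-1 cores printed above and no B1 copy. The last, at 11.7 kb, had a signal value of 0.845 and 3 AP-1 cores. Col5a2 was the only fibrillar gene with more than 1 peak past both limits, and 21.5% of the 200 genes nearest in length had at least as many peaks.

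Col5a3 (chr9:20770057-20815067), the third type V chain, had 6 peaks where 0.549 was expected, and none of the 200 genes nearest in length (0.0%) had as many. Within the gene lay 3 of them, 1.12, 11.3 and 32.2 kb from the start, with signal values of 0.736, 0.702 and 0.993. Another lay 8.12 kb downstream with a signal value of 0.931. The remaining pair lay 8.88 and 9.93 kb upstream, with signal values of 0.937 and 1.14, inside the neighbouring gene Rdh8, a retinol dehydrogenase. Col5a3 was the member nearest to Zfp266, 248.6 kb away on the same chromosome. Without Col5a3, 20 collagen genes had a peak, the ratio to expectation was 1.04 and 42 peaks were left, and whether the nearness to Zfp266 has a part in its peaks was not tested.

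Col1a1 (chr11:94936224-94953042) and Col1a2 (chr6:4505618-4541543), the chains of type I collagen, had none, and their nearest peaks were 66.3 and 14.3 kb away. Col5a1, the main type V chain, is 153.1 kb long and had its nearest peak 46.7 kb away. Col3a1 (chr1:45311538-45349706), the chain of type III collagen in skin and vessels, had 1 peak 4.33 kb downstream with a signal value of 0.729. The short genes among these were not expected to have one in most cases, since 22.2% of genes as long as Col1a1 and 33.1% of those as long as Col1a2 or Col3a1 did, whereas for Col5a1 the share was 61.1%.

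Single peaks were found in introns of Col2a1, the collagen of cartilage, with a signal value of 1.01, and of the fibrillar genes Col24a1 (0.581) and Col27a1 (0.573). The last 2 values are low in the list, at percentiles 8.0 and 7.41. Col11a1 and Col11a2, minor chains of cartilage fibrils, had their nearest peaks at 22.1 and 19.6 kb.

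The basement membrane genes had a peak in 2 of 4 cases (2.44 expected). Col4a1 and Col4a2, the chains of type IV collagen found in all basement membranes, start next to each other and are read in opposite directions, and no peak lay over their shared start region. Col4a2 (chr8:11312805-11449287) had 6 peaks in introns 3 and 4, which together spread over 47.6 kb. Their signal values were 0.559, 0.605, 0.610, 0.730, 0.762 and 0.833, so that all 6 were below the median of the list. Only 4.50% of the 200 genes nearest in length had at least as many peaks, and 1.83 were expected. AP-1 cores were found in 4 of the 6, and a single B1 copy, of 76.5% identity, met one of them. Col4a1 (chr8:11198423-11312826) had 1 peak in intron 2 with a signal value of 0.837. The kidney chains Col4a3 and Col4a4, which share a start region in the same way, had their nearest peaks at 70.6 and 66.7 kb.

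Among the short-chain network collagens 1 of 3 genes had a peak (1.09 expected). Col8a1 (chr16:57624256-57754737), a collagen of vessel walls and of the membrane beneath the corneal endothelium, had 4 peaks. The upstream peak, 3.75 kb before the gene, had a signal value of 1.16 and a −log10 q of 2.56, and it held 2 B1 copies and an AP-1 core. The peak in the first intron had a signal value of 1.18, and the 2 in the second intron had 0.8515 and 0.782. The 4 peaks were spread over 118.3 kb. Col8a2 and Col10a1, the latter made by hypertrophic chondrocytes, had their nearest peaks at 130.0 and 64.4 kb.

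Type VI collagen genes had a peak in 3 of 6 cases (2.53 expected). Col6a3 (chr1:90766860-90843971), the longest of the 3 classical chains, had 2 peaks 4.23 kb across in its first intron, with signal values of 0.867 and 0.578. Both held an AP-1 core and a B1 copy, of 93.7 and 86.4% identity. The partner chains Col6a1 and Col6a2, which stand on chromosome 10, had no peak within 170.4 and 236.7 kb, distances reached by 19.98 and 12.6% of genes of their length groups. Among the 3 neighbouring genes of chromosome 9, Col6a5 had a peak over exon 11 (signal value 0.770), Col6a6 had one in intron 35 (1.07, past both limits), and Col6a4 had none.

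Col7a1 (chr9:108953586-108984875), which codes for the anchoring fibrils that hold the epidermis to the dermis, had 2 peaks where 0.455 was expected, and 7.0% of the 200 genes nearest in length had at least as many. The first, 1.20 kb upstream of the gene, had the highest −log10 q of all collagen peaks (2.78) and a signal value of 0.942. It held the B1 copy nearest to the consensus and no AP-1 core, and it was closer to Uqcrc1, a gene for a subunit of mitochondrial complex III, at 695 bp. The second covered 14 of the 119 exons in part or in whole, with a signal value of 0.794 and 4 AP-1 cores.

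FACIT genes had a peak in 2 of 9 cases, with 3.99 expected, and 5 peaks where 9.97 were expected. Col12a1 (chr9:79598987-79718722), a FACIT of tendon and skin, had 2 peaks in introns 43 and 56, with signal values of 0.906 and 0.571. Col19a1 (chr1:24257683-24587437), a FACIT of basement membrane zones, had 3 peaks with signal values of 0.630, 0.982 and 1.01, which spread over 163.5 kb. Col14a1, a partner of Col12a1 on type I fibrils, had the largest distance of all 42 genes, 494.3 kb, which 2.95% of genes of its length group reached. Col22a1, a FACIT of tissue junctions, was 266.1 kb away from its nearest peak (7.49%), and Col20a1 256.55 kb (10.99%). The cartilage chains Col9a1, Col9a2 and Col9a3 were 138.7, 74.2 and 104.6 kb away, and Col16a1 41.4 kb.

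Both multiplexins had peaks (1.07 expected), with 6 peaks where 2.78 were expected. Col18a1 (chr10:77052179-77166530), whose protein carries the endostatin fragment at its end, had 5 peaks, all in intron 2. Their signal values were 0.597, 0.876, 0.948, 0.952 and 1.46. The highest was the highest of all collagen peaks, above 96.5% of the whole list, and it held neither an AP-1 core nor a B1 copy. The peak with 0.876 had the second highest −log10 q of the collagen peaks (2.71) and held the B1 copy and the AP-1 core printed above, 481 bp apart. Within 50 kb of Col18a1 there were 15 peaks, more than at any other collagen gene. Only 5 of the 15 lay in the gene, and this count was not set beside that of other genes of its length. Col15a1 had 1 peak in intron 32 with a signal value of 0.834.

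Transmembrane collagens had a peak in 2 of 4 cases (2.16 expected), with 3 peaks where 6.055 were expected. Col13a1, a collagen of neuromuscular junctions, had 2 peaks with signal values of 0.581 and 0.966, and Col23a1 had 1 in its first intron (0.904). Col17a1, the collagen of hemidesmosomes, and Col25a1 had their nearest peaks at 35.8 and 36.6 kb. Of the other 2 genes, Col26a1 (chr5:136741760-136883215) had 3 peaks with signal values of 1.03, 1.19 and 1.23, each higher than at least 71.2% of all peaks, the middle one with the B1 copy printed above. Col28a1 had 1 peak with a −log10 q of 2.04 and a B1 copy of 84.6% identity.

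**Figure D4:**
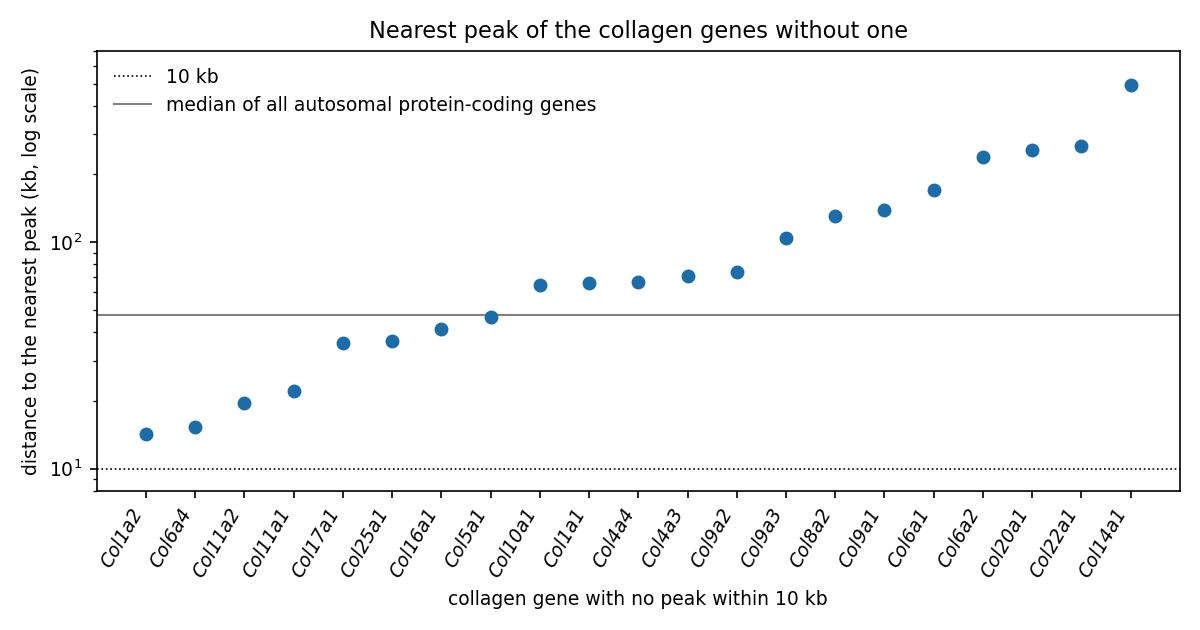
Distance in kb (vertical axis, log scale) from each of the 21 collagen genes without a peak within 10 kb (horizontal axis) to its nearest peak. The distances run from 14.3 kb at Col1a2 to 494.3 kb at Col14a1, on both sides of the median over all autosomal protein-coding genes (47.9 kb, grey line), which includes genes that overlap a peak.

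The genes that modify, process, cross-link, bind or degrade collagen were taken as a second list, of which 48 of 49 were autosomal and measured. A peak was found at 27 of them (56.25%, against 27.9% of all genes), where 16.5 were expected from length. The ratio was 1.64, beside the 1.07 of the collagen genes. With a peak in the gene itself there were 17 (11.6 expected), so for 10 of the 27 the peak lay only in the flanks. Past both limits there were 9 (6.26 expected), and with the peaks of higher score alone 13 (10.2 expected). No test of the difference between the lists was made. The list was written with earlier results of these data known, so its count above expectation was not tested and no interval is given.

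Among the cross-linking enzymes, 4 of 5 had a peak (1.47 expected). Loxl2 had 5 peaks with a highest signal value of 1.45, Loxl1 had 3 (1.49), and Lox and Loxl4 had 1 each (1.16 and 1.15), outside the gene. Of the collagen receptors 5 of 7 had one (2.98 expected). Ddr2, a receptor tyrosine kinase that binds fibrillar collagen, had 9 peaks and a highest signal value of 1.80, and Itgb1, the beta chain shared by the collagen-binding integrins, had 3 (1.45). Itga1, Itga11 and Ddr1 had 1 each.

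Procollagen processing genes had a peak in 6 of 8 cases (3.89 expected), among them the propeptide proteases Adamts2 with 5 peaks and Bmp1 with 1. Genes for the modification and folding of the chains had one in 7 of 19 cases (5.67 expected). These included the prolyl hydroxylase genes P4ha3, P4hb and P3h2 and the lysyl hydroxylase genes Plod2 and Plod3. The peaks of P4hb, Plod3, Ppib and Colgalt1 lay outside the gene. The collagen chaperone gene Serpinh1 had none. Of the genes for breakdown and uptake 5 of 9 had one (2.50 expected), with Timp2, an inhibitor of matrix metalloproteinases, at 4 peaks.

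**Figure D5:**
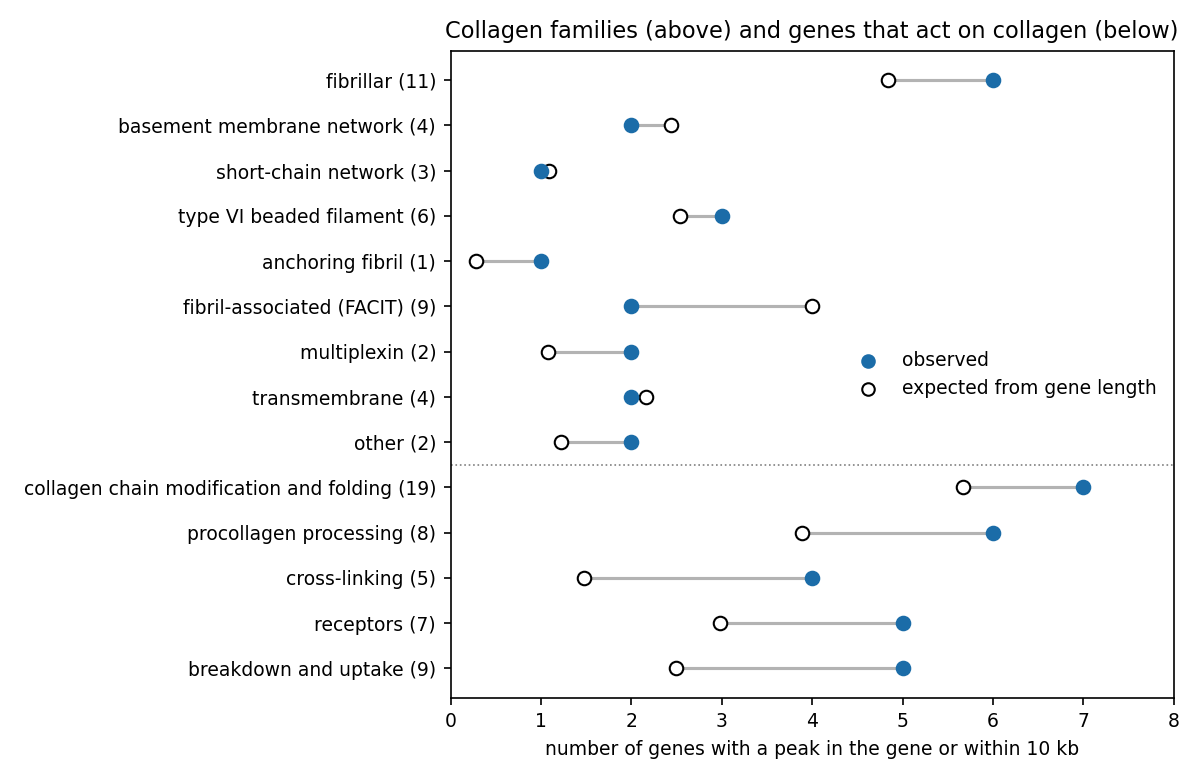
Number of genes with a peak in the gene or within 10 kb (filled points) and the number expected from gene length (open points) for the 9 collagen families (above the dotted line) and 5 groups of genes that act on collagen (below it), with the number of genes in parentheses. FACIT genes lie furthest below expectation (2 against 3.99) and cross-linking genes have 4 against 1.47.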

How the data were processed

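The processed DamID-seq data of MEFs used here are 1 list of peaks made from 5 Dam only and 5 Dam-Zfp266 samples. The paper states that raw data are available as well, and reads were not used here. Per the labels, cells were sorted for mOrange, whereas the methods name GFP. The authors removed adapters with Cutadapt, aligned reads to GRCm38 with BWA, removed mitochondrial and blacklisted reads and, after counting the reads of each DpnII fragment (Rsubread), ran callPeak of Daim. FastQC, cutadapt, BWA and GRCm38.p6 are named in the submitters' processing notes, without versions. The deposited score and signal value of each peak are as Daim gave them, and the scale of the signal value is not stated. The authors' list also gives a −log10 q-value and a −log10 p-value, and the latter was not used. All 15119 peaks started and ended at a GATC site of GRCm38. The list does not give the read depth, and the interval given covers counting error only.

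The 42 members, their families and the second list were chosen with earlier results of these data known, so no test was made over a list. Expected counts are shares over the other autosomal protein-coding genes of the same of 10 length groups. Every member with a peak is named, and those with at least 3 peaks, one of the 5 highest signal values or a promoter peak are given peak by peak, while other genes given peak by peak were chosen after their values were seen. The main fibroblast collagens are named with or without a peak. B1 copies were found with blastn 2.17.0 (at least 80 bp and 70% identity, 282378 copies in the genome). Sequences are from the GRCm38.p6 reference of RefSeq, made from strain C57BL/6J, not from reads of these cells. The counting of peaks at genes and the number expected from length were tested on simulated peaks at random places, for long genes only. Computation used Python 3.11.15, numpy 2.4.6, pandas 2.3.3, scipy 1.17.1 and matplotlib 3.10.9.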

Additional observations from a re-analysis of the deposited data

How the results depend on the processing

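The number of collagen genes with a peak stayed between 20 and 29 under 9 of 11 alternatives, the ratio to the number expected from length between 1.01 and 1.20 under 14 of 15, and the number of peaks between 42 and 49 under 8 of 11. Restricting the list to q below 0.05 and a signal value above 1 left 6 genes, a ratio of 0.727 and 9 peaks, so the ratio moved below 1. Keeping only peaks with a score in the upper part of the list (above its median) left 13 genes and 25 peaks, and a distance of 50 kb gave 83 peaks. Leaving out Col5a3, and the alternatives for the genes that act on collagen (ratios of 1.28 to 1.66, from 9 to 27 genes with a peak), were chosen after seeing the data. No paired analysis was possible because the list pools the samples and carries no column of a single one, and for the same reason no replicate could be left out. Without counts, neither the error of a signal value nor what a deeper library would add could be given.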
